A study of Mus musculus with 12 samples.

Results

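Chemokine ligand genes encode small secreted proteins that direct the movement of leukocytes. They were chosen by name, as the gene rows called Ccl or Cxcl with a number, plus Cx3cl1, Xcl1, Pf4 and Ppbp. This gave 47 of the 53801 gene rows, under 42 gene symbols. Cutaneous squamous cell carcinomas, skin cancers of epidermal origin, of FVB mice were the source of the cells, which were sorted before RNA sequencing. The 12 libraries formed 4 groups of 3. Macrophages were taken as CD45+ F4/80+ cells and divided into FceRIa-positive and FceRIa-negative cells, FceRIa being the alpha chain of the high-affinity receptor that binds IgE. Tumor cells of the basal layer were taken as Rosa-YFP+ CD49f+ CD29+ cells and divided by an mScarlet reporter of TGF-beta signalling into reporter-positive and reporter-negative cells. No group received a treatment according to the labels, and the sources used here do not give the promoters that drive the reporter and the YFP mark, the age of the mice or the number of animals. The labels also do not say that the replicates came from separate animals, so each p-value measures only the spread between these libraries.

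Chemokines bind receptors coupled to G proteins and form gradients that leukocytes follow. The CC and CXC families are named for the spacing of their first cysteines, and many of their genes lie side by side in the genome. Several CXC ligands attract neutrophils through CXCR2, CCR2 ligands attract monocytes, CCR4 ligands attract T cells of certain subsets, and CXCR3 ligands are induced by interferons. In skin tumors both the epithelial cells and the macrophages are known sources of these proteins.

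Values are CPM, counts divided by library size on a scale shared by all 12 libraries, or RPKM, which is CPM per kilobase of exon and is used to compare levels between genes. Total counts ran from 33704786 to 40041144 per macrophage library and from 27951632 to 35088897 per tumor library. A count of 3, the limit that a count of 0 allows, stood for 0.0683 to 0.109 CPM and covers counting error only. The labels of both cell types were matched by their markers: Adgre1, which encodes F4/80, had 469.9 to 937 CPM in macrophages and 0.261 to 2.71 CPM in tumor cells, and 8 keratinocyte markers summed to 589 to 3836 CPM in macrophages and 63543 to 79559 CPM in tumor cells. Fcer1a RNA was at or near the limit in FceRIa-positive macrophages (0.0286 to 0.185 CPM) and in FceRIa-negative macrophages (0 to 0.091 CPM), so it gives no check of that sort. The 2 cell types were deposited in separate tables, so a difference between cell types and a difference between tables cannot be told apart. Replicate 2 stood apart in tumor cells, while in macrophages all 3 replicates were far from each other, with a chi-square over degrees of freedom of 51.3 and 63.2 between replicates 1 and 3 and 85.1 to 138 for pairs with replicate 2. Tumor replicates 1 and 3 were much alike, and their chi-square over degrees of freedom was 1.62 in reporter-positive cells and 2.97 in reporter-negative cells, against 43.1 to 90.6 for pairs with replicate 2.

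Of the 47 rows, 36 had at least 1 count and 11 had none in any library. The 11 empty rows were those of Ccl21a, Ccl21b, Ccl21c, Ccl26, Ccl27, Ccl27b and a further copy of Ccl19. Most of these are near-identical copies, so reads that match several of them cannot be told apart and a count of 0 does not show that the genes were silent. A further 3 genes, Ccl19, Cxcl15 and Cxcl17, never had more than 1 count in a library. A count was present in every macrophage library for 31 genes and in every tumor library for 23. At a mean of at least 10 CPM in 1 of its groups, macrophages had 17 ligand genes and tumor cells had 7, with 5 in both lists. These 5 were Ccl2, Cxcl1, Cxcl2, Cxcl3 and Cxcl16.

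**Figure D1:**
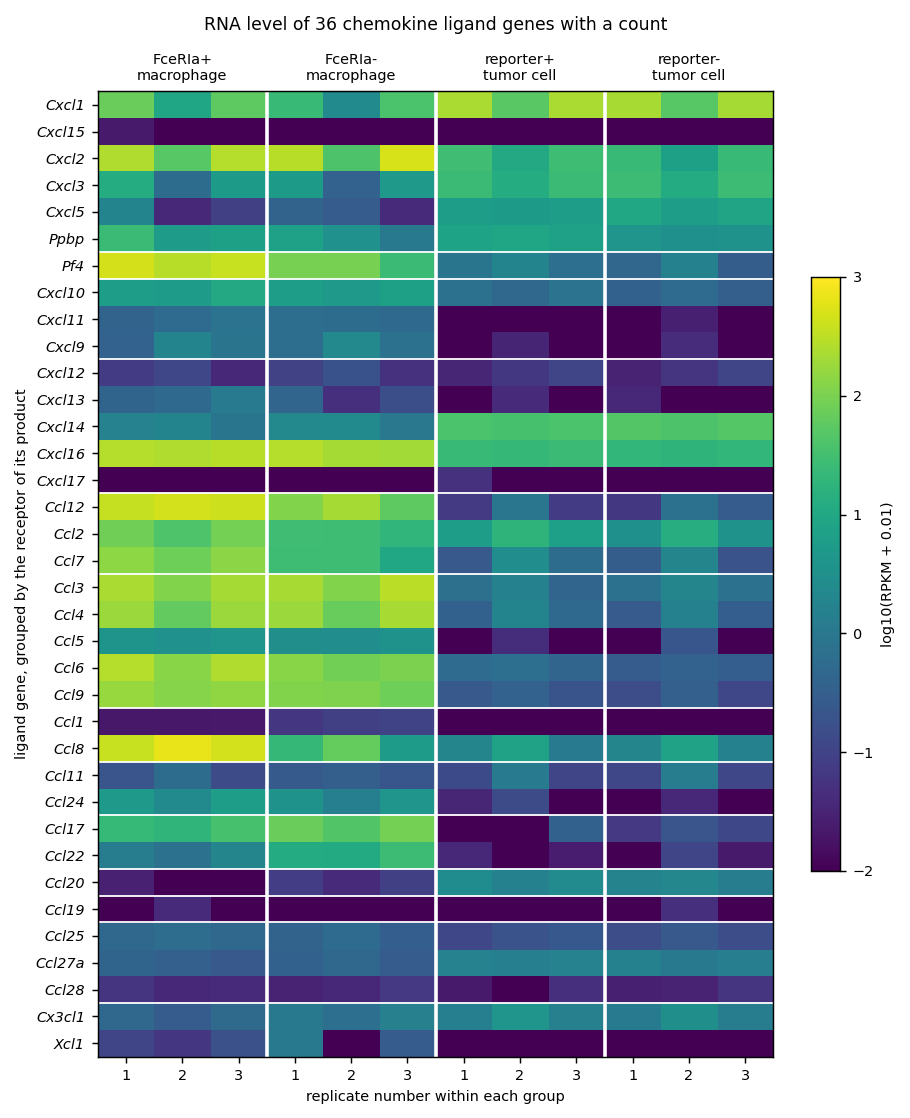
Level of the 36 ligand genes with a count in each of the 12 libraries, as log10 of RPKM plus 0.01, with genes in rows by the receptor of their product and libraries in columns. CC ligands such as Ccl8, Ccl12 and Ccl6 were high in macrophage columns, and Cxcl1 and Cxcl14 were high in tumor cell columns.

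Macrophages and tumor cells expressed different ligands. Summed over all ligand genes, RPKM was 2763 ± 361 in FceRIa-positive macrophages and 1493 ± 313 in FceRIa-negative macrophages, and it was 316 ± 107 in reporter-positive tumor cells and 296 ± 106 in reporter-negative tumor cells (SD, n = 3 each). CC ligands made up 54.0 to 73.5% of the summed ligand RPKM in macrophage libraries and 2.86 to 19.9% in tumor libraries. In tumor cells the CXC ligands made up 78.0 to 96.8%. Cxcl1, a CXCR2 ligand that attracts neutrophils, alone accounted for 49.8% of the ligand RPKM in reporter-positive cells and 49.9% in reporter-negative cells on average. Its share varied widely between libraries, from 27.9 to 61.0% in reporter-positive cells and from 29.35 to 60.5% in reporter-negative cells.

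The order of ligands by RPKM differed between the groups. In FceRIa-positive macrophages Ccl8 stood first at 505 ± 164 RPKM, followed by Ccl12 at 413 ± 51.4, Pf4 at 381 ± 93.3, Cxcl16 at 273 ± 16.0 and Ccl6 at 222 ± 83.5. In FceRIa-negative macrophages Cxcl2 stood first at 275 ± 231 RPKM, followed by Cxcl16 at 231 ± 35.7, Ccl3 at 212 ± 96.5, Ccl4 at 158 ± 80.4 and Ccl12 at 127 ± 78.5, with Ccl8 in place 10 at 31.5 ± 31.9 (SD, n = 3 each). Among these first 5 of each group, neighbours differed by no more than the larger of their SDs, apart from Pf4 and Cxcl16 in FceRIa-positive macrophages. In tumor cells Cxcl1 stood first, at 171 ± 102 RPKM in reporter-positive cells and 160.4 ± 94.7 in reporter-negative cells, and Cxcl14 second, at 36.7 ± 1.88 and 43.9 ± 4.12 RPKM in the same groups. Places 3 to 5 were taken by Cxcl16, Cxcl2 and Cxcl3, which lay between 18.1 and 23.8 RPKM in both tumor groups and did not separate beyond their spread.

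In the contrast of all macrophage with all tumor libraries, 30 ligand genes could be tested. Of these, 20 were higher in macrophages, against a background of 44.8% of all 16279 genes tested, and 7 were lower in macrophages, against 40.6% of all genes, so that 27 of 30 differed in either direction against 85.4% of all genes (edgeR quasi-likelihood test, adjusted p under 0.05). The median log2 difference was 4.29 over the ligand genes and 0.09 over all genes. The 7 genes lower in macrophages were Cxcl1, Cxcl3, Cxcl5, Cxcl14, Cx3cl1, Ccl20 and Ccl27a. Ppbp, Ccl11 and Cxcl12 were not called.

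**Figure D2:**
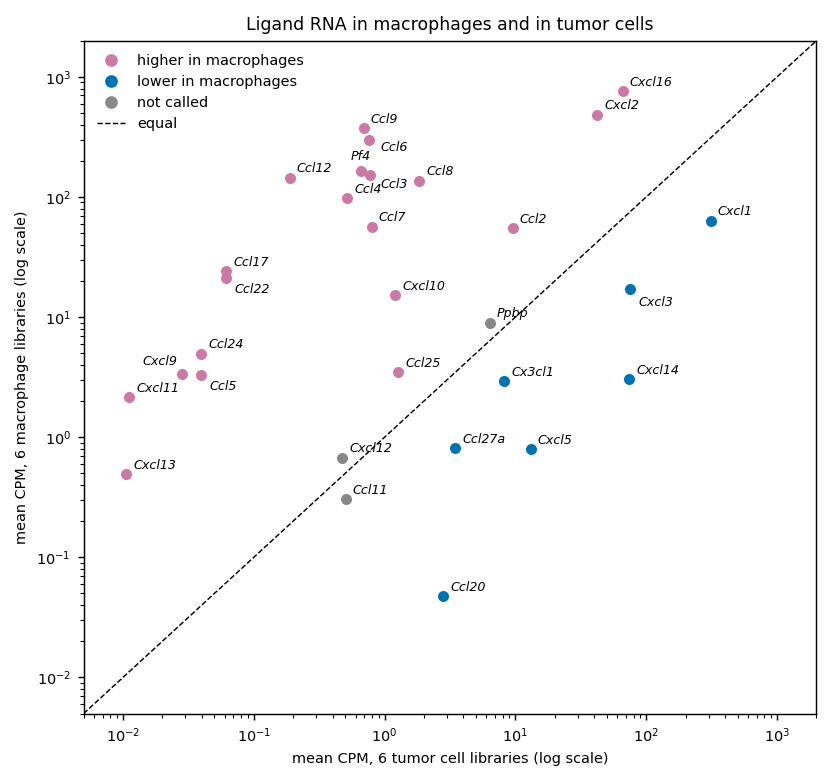
Mean CPM of the 30 tested ligand genes over 6 macrophage libraries (vertical, log scale) against 6 tumor cell libraries (horizontal, log scale), coloured by the edgeR call. The 20 genes higher in macrophages lie above the line of equal levels and reach from Cxcl13 to Cxcl16, and the 7 genes lower in macrophages lie below it.

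The widest gaps belonged to CC ligands of macrophages. Ccl12, a CCR2 ligand, averaged 145 ± 89.8 CPM in macrophages and 0.188 ± 0.203 CPM in tumor cells (SD, n = 6 each), a log2 difference of 9.36 ± 0.56 (SE, adjusted p = 3.98e-08). Ccl9 and Ccl6, ligands of CCR1 in rodents, differed by 9.08 ± 0.30 and 8.55 ± 0.27 on the log2 scale. Cxcl16, whose product is a membrane-bound CXCR6 ligand that also takes up oxidized lipoproteins, averaged 762 ± 103 CPM in macrophages and 66.0 ± 8.25 CPM in tumor cells, a log2 difference of 3.53 ± 0.10 (SE, adjusted p = 1.74e-10). Its exons overlap those of Zmynd15 on the opposite strand, as those of Cxcl10 overlap Art3 and those of Cxcl11 overlap Gm2673. Whether counting used strand is not stated in the sources used here, and these reads cannot be assigned to a strand.

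In the other direction, Cxcl14, a ligand made by normal skin epithelium, averaged 3.05 ± 1.19 CPM in macrophages and 73.6 ± 8.84 CPM in tumor cells, a log2 difference of -4.60 ± 0.24 (SE, adjusted p = 1.19e-08). Ccl20, the CCR6 ligand, averaged 0.0476 ± 0.0492 CPM in macrophages, at or near the limit of detection, and 2.81 ± 0.773 CPM in tumor cells. Ccl27a, a skin-derived CCR10 ligand whose exons overlap Il11ra1 on the opposite strand, averaged 0.812 ± 0.187 CPM in macrophages and 3.45 ± 0.568 CPM in tumor cells. Cx3cl1, which encodes the membrane-anchored ligand fractalkine, averaged 2.92 ± 1.71 CPM in macrophages and 8.16 ± 4.69 CPM in tumor cells, a log2 difference of -1.61 ± 0.37 (SE, adjusted p = 0.00175).

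Levels in the opposite cell type were set beside the markers there. In tumor cells, 7 of the 8 macrophage markers stood at 0.129 to 0.905% of their macrophage level. Ccl12, Ccl9, Ccl17, Ccl6, Ccl22, Pf4, Ccl3 and Ccl4 lay in that range, at 0.130 to 0.531%, and Ccl8 and Ccl7 lay just above it at 1.35 and 1.41%. Cxcl10, Cxcl2, Cxcl16 and Ccl2 were well above it, at 7.88, 8.65, 8.66 and 17.4% of their macrophage level. In macrophages, 6 of the 8 keratinocyte markers stood at 1.42 to 6.63% of their tumor cell level, Epcam at 86.2% and Cdh1 at 214%. Cxcl14 and Cxcl5 lay in that range at 4.14 and 6.11%, while Cxcl1 and Cxcl3 stood at 20.4 and 22.7% of their tumor cell level. The part of RNA carried over between the sorted populations in these levels was not tested.

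The CXCR2 ligands were divided between the cell types. Cxcl1 and Cxcl2 lie next to each other on chromosome 5 and their products share that receptor. The RPKM ratio of Cxcl2 to Cxcl1 was 3.63, 5.69 and 4.66 in FceRIa-positive macrophages and 12.4, 16.8 and 12.9 in FceRIa-negative macrophages. It was 0.125, 0.194 and 0.123 in reporter-positive tumor cells and 0.109, 0.134 and 0.112 in reporter-negative tumor cells. Every macrophage library thus had more Cxcl2 than Cxcl1, and every tumor library had more Cxcl1 than Cxcl2. In the contrast of cell types, Cxcl2 was higher in macrophages by 3.52 ± 0.66 in log2 terms (SE, adjusted p = 0.000397) and Cxcl1 was lower, with a log2 difference of -2.40 ± 0.72 (SE, adjusted p = 0.00871).

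The upstream sequences of Cxcl1, Cxcl2 and Cxcl3 are shown because these genes had closely similar patterns across replicates (described further on). Each run is the 250 bases before the RefSeq start on GRCm38.p6, plus strand, at chr5:90890995-90891244 for Cxcl1, chr5:90903649-90903898 for Cxcl2 and chr5:90785851-90786100 for Cxcl3. Capitals mark matches to the NF-kappaB consensus, which here are 2 overlapping matches per gene, the first beginning 71, 97 and 73 bases before the start in the order given.
Cxcl1: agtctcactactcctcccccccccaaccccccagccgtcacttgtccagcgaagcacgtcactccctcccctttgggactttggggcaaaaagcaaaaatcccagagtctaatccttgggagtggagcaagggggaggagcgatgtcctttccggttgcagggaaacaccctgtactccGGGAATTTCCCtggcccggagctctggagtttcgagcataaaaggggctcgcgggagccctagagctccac
Cxcl2: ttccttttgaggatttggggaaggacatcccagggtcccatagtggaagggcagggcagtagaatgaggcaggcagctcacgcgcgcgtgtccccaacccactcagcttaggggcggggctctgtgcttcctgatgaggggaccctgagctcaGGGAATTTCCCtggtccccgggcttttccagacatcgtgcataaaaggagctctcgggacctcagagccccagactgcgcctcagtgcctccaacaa
Cxcl3: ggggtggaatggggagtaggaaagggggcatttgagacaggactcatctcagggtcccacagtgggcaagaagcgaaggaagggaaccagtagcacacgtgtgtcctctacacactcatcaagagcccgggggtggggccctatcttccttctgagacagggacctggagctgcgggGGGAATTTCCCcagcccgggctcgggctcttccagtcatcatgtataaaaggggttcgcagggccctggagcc
The capital letters are identical in the 3 genes. Searched on both strands, the NF-kappaB consensus was found in 7 of the 35 windows of 29 ligand genes in the RefSeq table (20%), namely those of Ccl1, Ccl9, Ccl20, Cxcl1, Cxcl2, Cxcl3 and Cxcl10, and in 7.25% of all 32851 promoter windows of that length. A match is a description of letters and not of binding.

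Across the FceRIa sort, the main edgeR settings called ligand genes only when the replicate number was used as a block, and 15 of 29 were not called even then. DESeq2, and edgeR without the count filter, called some without the block. Among the genes called by edgeR with the block, those higher in FceRIa-positive macrophages were led by Ccl8, Pf4, Ccl7 and Ccl12. Those lower there were Ccl22, Ccl17 and Cx3cl1, a number at the share found over all genes. Without pairing, none of the 29 ligand genes tested passed an adjusted p of 0.05, and the background was 0.0% of all 14988 genes in each direction (edgeR), while 10 of the 29 had an unadjusted p under 0.05. DESeq2 without pairing called 6 higher (background 3.58%) and 3 lower (background 3.76%), and edgeR without the count filter called 6 higher (background 0.926%) and 2 lower (background 1.05%). With the replicate number as a block, which the pairing check allowed, 11 (37.9%) rose in FceRIa-positive macrophages, against 10.8% of all genes. The 3 that fell (10.3%) were near the 10.2% of all genes that fell. DESeq2 with the block called 11 higher (background 9.17%) and 3 lower (background 8.49%). The median log2 difference with the block was 0.31 over the ligand genes and -0.0039 over all genes. In 6 genes (20.7%) every FceRIa-positive library lay above every FceRIa-negative library (background 10.8%). In 3 (10.3%) every one lay below, near the background of 10.4%. A change in a bulk library cannot separate fewer cells of a type from less RNA per cell.

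**Figure D3:**
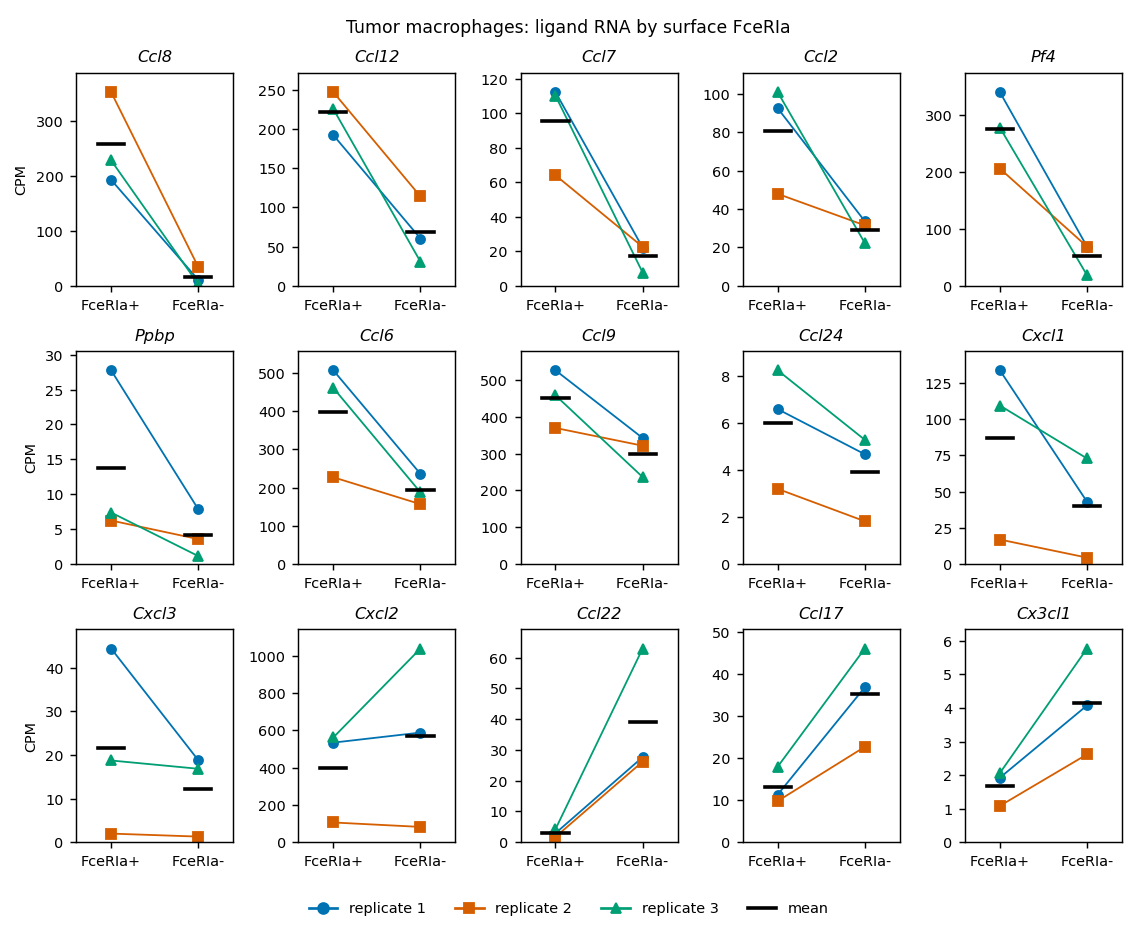
CPM of 15 ligand genes in FceRIa-positive (left) and FceRIa-negative (right) macrophages, with lines joining libraries of the same replicate number and black bars for the mean of 3. All 3 lines fall from left to right for Ccl8, Ccl12, Ccl7, Ccl2 and Pf4, all 3 climb for Ccl22, Ccl17 and Cx3cl1, and Cxcl2 is mixed.

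Ccl8 (ENSMUSG00000009185), whose mouse product binds CCR8, showed the widest separation. It had 193, 353 and 228 CPM in FceRIa-positive macrophages and 11.0, 34.3 and 2.97 CPM in FceRIa-negative macrophages. The groups were far apart, and within pairs the positive library held 17.6, 10.3 and 76.9 times the level of the negative one. The log2 difference was 4.42 ± 0.45 with the block (SE, adjusted p = 0.000633) and 4.02 ± 0.84 without it (SE, adjusted p = 0.0745).

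All 3 CCR2 ligands, Ccl2, Ccl7 and Ccl12, moved the same way as Ccl8. Ccl12 had 192, 247 and 225 CPM in FceRIa-positive macrophages and 60.4, 114 and 30.8 CPM in FceRIa-negative macrophages. Ccl7 had 112, 64.2 and 110.3 CPM in FceRIa-positive macrophages and 22.2, 22.6 and 7.71 CPM in FceRIa-negative macrophages. For both genes every positive library lay above every negative library, and the gap was widest in replicate 3. Ccl2, the monocyte attractant MCP-1, had 92.6, 48.0 and 101 CPM in FceRIa-positive macrophages and 33.6, 31.5 and 22.3 CPM in FceRIa-negative macrophages. With the block, the log2 differences were 2.51 ± 0.36 for Ccl7 (SE, adjusted p = 0.00225), 1.88 ± 0.28 for Ccl12 (SE, adjusted p = 0.00263) and 1.43 ± 0.24 for Ccl2 (SE, adjusted p = 0.00484). Without the block their adjusted p-values were 0.0591, 0.11 and 0.0697.

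These genes lie together. Ccl2, Ccl7, Ccl11, Ccl12, Ccl8 and Ccl1 occupy chr11:82035571-82305690 on GRCm38. Of the 5 ligands tested there with the block in the macrophages, 4 rose and Ccl11 was not called, at a log2 difference of 0.17 ± 0.45 (SE, adjusted p = 0.83). No other gene within 100000 bases of this cluster could be tested. The ratio of Ccl8 to Ccl12 in RPKM was 1.05, 1.5 and 1.06 in FceRIa-positive macrophages and 0.191, 0.317 and 0.101 in FceRIa-negative macrophages, so Ccl8 differed more than its neighbour in each pair.

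The 250 bases before the RefSeq starts of Ccl8 and Ccl12 are shown because these neighbours led the ligands of FceRIa-positive macrophages by RPKM. They are at chr11:82114935-82115184 for Ccl8 and chr11:82101595-82101844 for Ccl12 (GRCm38.p6, plus strand), and capitals mark the letters TATAAA.
Ccl8: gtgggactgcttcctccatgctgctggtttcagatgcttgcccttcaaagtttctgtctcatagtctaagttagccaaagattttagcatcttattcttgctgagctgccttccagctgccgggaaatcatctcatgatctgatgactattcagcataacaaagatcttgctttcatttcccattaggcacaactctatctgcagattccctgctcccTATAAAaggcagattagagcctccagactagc
Ccl12: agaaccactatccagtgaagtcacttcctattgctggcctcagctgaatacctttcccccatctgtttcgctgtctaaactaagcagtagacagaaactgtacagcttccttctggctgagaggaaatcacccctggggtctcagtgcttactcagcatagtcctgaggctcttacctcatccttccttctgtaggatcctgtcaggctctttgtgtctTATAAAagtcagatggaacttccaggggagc
The letters begin 32 bases before the start in Ccl8 and 31 bases before it in Ccl12. Searched on both strands, they were found in 11 of the 35 ligand windows (31.4%) and in 12.4% of all windows.

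Pf4 and Ppbp, neighbours on chromosome 5 known best for the platelet proteins they encode, both rose with the block. Pf4 had 341, 206 and 278 CPM in FceRIa-positive macrophages and 69.1, 69.1 and 18.8 CPM in FceRIa-negative macrophages. Ppbp, the precursor of a CXCR2 ligand, had 27.8, 6.24 and 7.38 CPM in FceRIa-positive macrophages and 7.85, 3.57 and 1.14 CPM in FceRIa-negative macrophages. The groups were apart for Pf4 and overlapped for Ppbp, although each pair had more in its positive library. The log2 differences with the block were 2.56 ± 0.37 for Pf4 (SE, adjusted p = 0.00236) and 1.71 ± 0.28 for Ppbp (SE, adjusted p = 0.0043). Without it the adjusted p-values were 0.0702 and 0.383. The 4 platelet markers summed to 2.27, 2.27 and 1.52 CPM in FceRIa-positive macrophages and 1.34, 2.14 and 2.71 CPM in FceRIa-negative macrophages. Treml1, 1 of the 2 platelet markers tested, rose with the block by 1.395 ± 0.28 in log2 terms (SE, adjusted p = 0.0104 with the block, 0.255 without), and the part of platelet RNA in Pf4 and Ppbp was not tested.

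Ccl6, Ccl9, Ccl3 and Ccl4, neighbours on chromosome 11, were divided. Ccl6 had 506, 227 and 460.5 CPM in FceRIa-positive macrophages and 236, 156 and 187 CPM in FceRIa-negative macrophages. Ccl9 had 526, 369.8 and 458 CPM in FceRIa-positive macrophages and 342, 322 and 236 CPM in FceRIa-negative macrophages. Both were higher in the positive library of every pair, and the groups of Ccl6 overlapped through replicate 2. The log2 differences with the block were 0.99 ± 0.14 for Ccl6 (SE, adjusted p = 0.00214) and 0.61 ± 0.13 for Ccl9 (SE, adjusted p = 0.0155). Without it the adjusted p-values were 0.163 and 0.183.

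Ccl3 and Ccl4, the inflammatory ligands MIP-1alpha and MIP-1beta, did not pass. Ccl3 had 178, 88.1 and 159 CPM in FceRIa-positive macrophages and 168, 85.2 and 233 CPM in FceRIa-negative macrophages. Ccl4 had 116, 41.3 and 116 CPM in FceRIa-positive macrophages and 119, 45.2 and 148 CPM in FceRIa-negative macrophages. The groups overlapped fully, and replicate 2 was lowest in each group. The log2 differences with the block were -0.13 ± 0.13 for Ccl3 (SE, adjusted p = 0.548) and -0.16 ± 0.09 for Ccl4 (SE, adjusted p = 0.247). Ccl5 was low in all macrophage libraries, at 2.69 to 3.92 CPM, and was not called.

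Of the CXCR2 ligands other than Ppbp, Cxcl1 and Cxcl3 passed with the block and Cxcl2 and Cxcl5 did not. Cxcl1 had 134, 16.9 and 109 CPM in FceRIa-positive macrophages and 42.9, 4.44 and 72.8 CPM in FceRIa-negative macrophages. Cxcl3 had 44.4, 1.98 and 18.7 CPM in FceRIa-positive macrophages and 18.8, 1.30 and 16.8 CPM in FceRIa-negative macrophages. Cxcl2 had 534, 106 and 562 CPM in FceRIa-positive macrophages and 588, 82.3 and 1038.5 CPM in FceRIa-negative macrophages. The 3 genes varied more between replicates than between the sort fractions, and replicate 2 was the lowest of each group. The log2 differences with the block were 1.34 ± 0.22 for Cxcl1 (SE, adjusted p = 0.00467), 0.71 ± 0.21 for Cxcl3 (SE, adjusted p = 0.0462) and -0.21 ± 0.21 for Cxcl2 (SE, adjusted p = 0.525). Without it the adjusted p-values of these 3 genes lay between 0.724 and 0.896. Cxcl5 ran from 0.0529 to 3.31 CPM over the 6 macrophage libraries.

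The remaining CXC ligands of macrophages did not pass. Cxcl16 had 820.3, 781 and 877 CPM in FceRIa-positive macrophages and 821, 648 and 622 CPM in FceRIa-negative macrophages, a log2 difference of 0.27 ± 0.11 with the block (SE, adjusted p = 0.126). The interferon-induced CXCR3 ligand Cxcl10 had 14.5, 12.7 and 23.3 CPM in FceRIa-positive macrophages and 14.2, 11.5 and 15.5 CPM in FceRIa-negative macrophages, with an adjusted p of 0.161 with the block. Cxcl9 and Cxcl11, its neighbours on chromosome 5, stayed between 1.09 and 6.78 CPM in macrophages, and 0 of these 3 CXCR3 ligands was called across the FceRIa sort by edgeR. Ccl24, a ligand of the eosinophil receptor CCR3, had 6.59, 3.20 and 8.24 CPM in FceRIa-positive macrophages and 4.67, 1.82 and 5.28 CPM in FceRIa-negative macrophages. In each pair the positive library was higher, by 0.65 ± 0.15 in log2 terms with the block (SE, adjusted p = 0.0164 with the block, 0.659 without).

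The CCR4 ligands Ccl22 and Ccl17, with Cx3cl1, were the ligand genes that fell. Ccl22 (ENSMUSG00000031779) had 2.94, 1.745 and 4.26 CPM in FceRIa-positive macrophages and 27.7, 26.2 and 63.0 CPM in FceRIa-negative macrophages. Ccl17 had 11.3, 9.78 and 17.9 CPM in FceRIa-positive macrophages and 36.8, 22.7 and 46.0 CPM in FceRIa-negative macrophages. Cx3cl1 had 1.92, 1.08 and 2.06 CPM in FceRIa-positive macrophages and 4.08, 2.62 and 5.77 CPM in FceRIa-negative macrophages. In all 3 genes each positive library was lower than each negative library. The log2 differences with the block were -3.66 ± 0.15 for Ccl22 (SE, adjusted p = 2.54e-05), -1.41 ± 0.11 for Ccl17 (SE, adjusted p = 0.000209) and -1.27 ± 0.18 for Cx3cl1 (SE, adjusted p = 0.00254). Without it the adjusted p-values were 0.0585, 0.0902 and 0.174.

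These 3 genes are neighbours on chromosome 8, within chr8:94745590-94812036. Of the 7 other genes tested within 100000 bases of them, 1 fell with the block and 0 rose. That gene, Arl2bp, differed by -0.40 ± 0.07 in log2 terms (SE, adjusted p = 0.00734) and was picked for mention after its value was seen. The upstream sequence of Ccl17, chr8:94810203-94810452 on GRCm38.p6, plus strand, is shown because the gene is a known target of the interleukin-4 and interleukin-13 factor STAT6 in mouse. Capitals mark a match to the STAT6-type palindrome, TTC and GAA with any 4 bases between them and searched on both strands, which begins 154 bases before the RefSeq start.
Ccl17: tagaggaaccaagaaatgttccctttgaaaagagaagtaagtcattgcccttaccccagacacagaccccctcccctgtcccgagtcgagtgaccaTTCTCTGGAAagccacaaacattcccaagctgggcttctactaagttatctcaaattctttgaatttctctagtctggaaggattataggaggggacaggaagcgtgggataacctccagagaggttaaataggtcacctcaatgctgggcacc
It was the only match to that palindrome among the 35 ligand windows (2.86%), against 5.85% of all windows, and the Ccl22 window held none.

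Markers of other cells moved with the same sort. The 7 markers of dendritic and Langerhans cells summed to 17.1, 51.0 and 28.1 CPM in FceRIa-positive macrophages and 93.9, 225 and 294 CPM in FceRIa-negative macrophages, and 6 of 7 fell with the block, by which 10.2% of all genes fell and 10.8% rose. Ccl22 and Ccl17 are known products of dendritic cells as well as of macrophages, and the part of such cells in their difference was not tested. The 8 T and NK cell markers summed to 3.76, 2.19 and 5.78 CPM in FceRIa-positive macrophages and 38.9, 5.19 and 44.5 CPM in FceRIa-negative macrophages. The 8 macrophage markers summed to 21054, 20829 and 23168 CPM in FceRIa-positive macrophages and 14855, 13514 and 11892 CPM in FceRIa-negative macrophages, with 7 of 8 higher with the block. The part of a higher macrophage content in the rise of Ccl8, Pf4 and the CCR2 ligands was not tested. The 6 endothelial and lymphatic markers summed to 120.2, 73.2 and 108 CPM in FceRIa-positive macrophages and 65.0, 40.5 and 53.0 CPM in FceRIa-negative macrophages, and 3 of 5 tested rose with the block. Of the neutrophil markers, 3 of 5 tested fell. The 8 keratinocyte markers summed to 2194, 1506 and 589 CPM in FceRIa-positive macrophages and 3836, 2790 and 2191 CPM in FceRIa-negative macrophages, and 6 of 8 fell with the block. Their part in the fall of Cx3cl1, which tumor cells expressed more strongly, was not tested.

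Left-out pairs changed some of these calls. With the block and without pair 1, Ccl6, Ccl8 and Pf4 were still called higher and Ccl17, Ccl22 and Cx3cl1 lower, whereas Ccl2, Ccl7, Ccl9, Ccl12, Ccl24, Cxcl1, Cxcl3 and Ppbp were not, and Cxcl13 was called. Some of this division lay at the threshold. The largest edgeR adjusted p over the left-out pairs was 0.0512 for Ccl12 and 0.0515 for Ccl7, against 0.0497 for Pf4 and 0.0494 for Ccl6. For the other genes lost it ran from 0.083 for Ccl2 to 0.359 for Cxcl3. The log2 difference stayed between 1.42 and 2.27 for Ccl12 and between 1.95 and 3.05 for Ccl7. Without pair 2 the fit called 11 genes higher, without Ccl24 and with Cxcl5, and without pair 3 it called the same 11 genes as with all pairs. The share of all genes called in these fits is not given here, so the counts do not show how stable the ligand calls were.

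In tumor cells, Ppbp, Ccl2, Cxcl2 and Cxcl16 were higher and Cxcl14 and Cxcl5 lower in reporter-positive cells with the block, and of these Ppbp alone was called without it. Without pairing 1 of the 21 ligand genes tested rose in reporter-positive cells, against 0.573% of all 13604 genes, and 0 fell, against 0.235% (edgeR). At an unadjusted p under 0.05 there were 4, and DESeq2 without pairing also called 1 higher (background 4.63%) and 0 lower (background 2.55%), as did edgeR without the count filter (background 0.699 and 0.145%). With the block 4 rose, against 10.7% of all genes, and 2 fell, against 7.34%. In tumor cells the pairing check set apart replicate 2 but did not tell replicates 1 and 3 from each other, so these pairs were partly assumed. DESeq2 with the block called 4 higher (background 8.05%) and 1 lower (background 5.16%). The median log2 difference with the block was 0.33 over the ligand genes and 0.00087 over all genes. In 3 genes, Ccl6, Cxcl16 and Ppbp, every positive library lay above every negative one (background 15.1%), and in Cxcl14 every one lay below (background 13.0%). These counts without overlap lie near the background of the whole table.

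**Figure D4:**
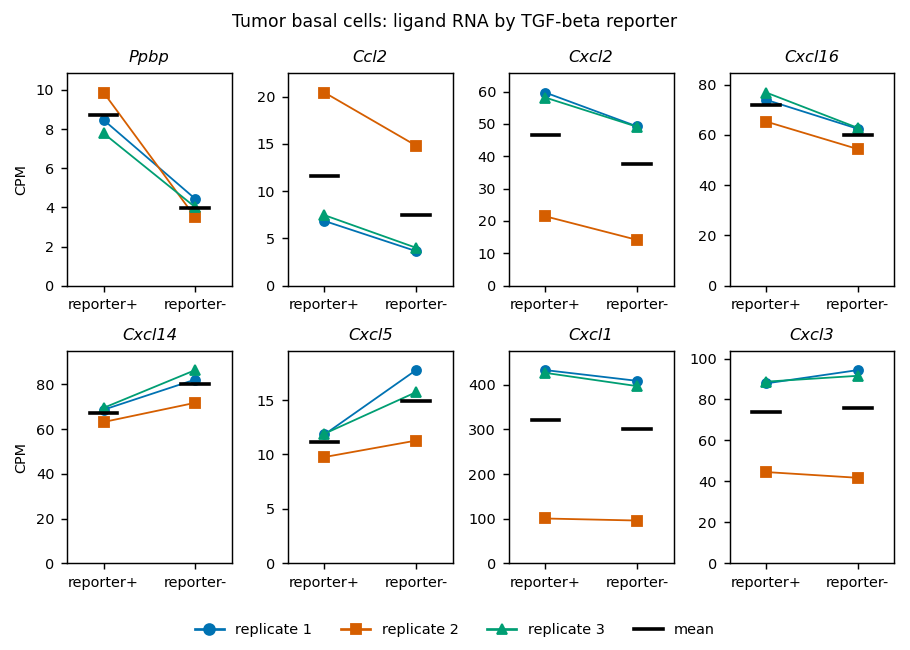
CPM of 8 ligand genes in reporter-positive (left) and reporter-negative (right) tumor cells, with lines joining libraries of the same replicate number and black bars for the mean of 3. The lines of Ppbp fall from left to right in every pair, those of Cxcl14 and Cxcl5 climb, and replicate 2 lies far below replicates 1 and 3 for Cxcl1, Cxcl2 and Cxcl3 and above them for Ccl2.

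Ppbp was the ligand gene called in both fits. It had 8.47, 9.87 and 7.78 CPM in reporter-positive cells and 4.44, 3.50 and 4.01 CPM in reporter-negative cells. All positive libraries were above all negative ones. The log2 difference was 1.12 ± 0.15 without the block (SE, adjusted p = 0.0475) and 1.11 ± 0.14 with it (SE, adjusted p = 0.00825). Without the block the adjusted p was above 0.05 when any 1 library other than reporter-positive replicate 2 was left out, within a range of 0.0285 to 0.271, while the log2 difference stayed between 1.02 and 1.21. Pf4, its platelet neighbour, was at 0.204 to 1.27 CPM in tumor cells and was not called. The 4 platelet markers summed to 1.62, 2.5 and 1.38 CPM in reporter-positive cells and 1.31, 1.31 and 0.930 CPM in reporter-negative cells, and Gp1bb, a platelet glycoprotein gene, was higher in reporter-positive cells with the block by 2.29 ± 0.43 in log2 terms (SE, adjusted p = 0.0198). The part of platelet RNA in the difference of Ppbp was not tested.

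The other CXCR2 ligands of tumor cells moved little. Cxcl1 had 433, 100.4 and 427 CPM in reporter-positive cells and 409, 95.8 and 397 CPM in reporter-negative cells. Cxcl3 had 87.9, 44.5 and 88.7 CPM in reporter-positive cells and 94.3, 41.8 and 91.6 CPM in reporter-negative cells. Cxcl2 had 59.7, 21.5 and 58.1 CPM in reporter-positive cells and 49.2, 14.2 and 49.1 CPM in reporter-negative cells. The positive library had more Cxcl1 and Cxcl2 in each pair, and more Cxcl3 in 1 of 3 pairs. With the block, the log2 differences were 0.35 ± 0.08 for Cxcl2 (SE, adjusted p = 0.0292), 0.08 ± 0.05 for Cxcl1 (SE, adjusted p = 0.302) and -0.03 ± 0.05 for Cxcl3 (SE, adjusted p = 0.752). Cxcl5 had 11.8, 9.77 and 11.9 CPM in reporter-positive cells and 17.8, 11.3 and 15.7 CPM in reporter-negative cells, and fell with the block, at a log2 difference of -0.41 ± 0.10 (SE, adjusted p = 0.0342 with the block, 0.291 without).

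Cxcl14 and Cxcl16 differed in opposite directions. Cxcl14 had 68.7, 63.2 and 69.5 CPM in reporter-positive cells and 82.2, 71.8 and 86.4 CPM in reporter-negative cells. Cxcl16 had 74.0, 65.3 and 76.9 CPM in reporter-positive cells and 62.5, 54.4 and 62.8 CPM in reporter-negative cells. The groups did not overlap for either gene. The log2 differences with the block were -0.26 ± 0.05 for Cxcl14 (SE, adjusted p = 0.0192) and 0.26 ± 0.05 for Cxcl16 (SE, adjusted p = 0.0186). Without it the adjusted p-values were 0.187 and 0.212.

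Of the CC ligands, Ccl2 had 6.85, 20.4 and 7.46 CPM in reporter-positive cells and 3.66, 14.8 and 4.01 CPM in reporter-negative cells. In each pair the positive library was higher, by 1.87, 1.38 and 1.86 times, and both libraries of replicate 2 stood above all the others. The log2 difference was 0.71 ± 0.13 with the block (SE, adjusted p = 0.0169) and 0.62 ± 0.67 without it (SE, adjusted p = 0.687). The macrophage marker C1qa had 2.82, 12.8 and 2.53 CPM in reporter-positive cells and 2.12, 10.3 and 2.24 CPM in reporter-negative cells. All 8 macrophage markers summed to 203, 230 and 195 CPM in reporter-positive cells and 178, 195 and 173 CPM in reporter-negative cells. With the block 2 of the 8, Lyz2 and Csf1r, rose, against 10.7% of all genes, and C1qa was not called. The 6 neutrophil markers summed to 88.3, 386 and 87.3 CPM in reporter-positive cells and 44.0, 77.6 and 51.1 CPM in reporter-negative cells. Their part in the difference of Ccl2 was not tested. Cx3cl1 had 5.71, 15.9 and 5.97 CPM in reporter-positive cells and 4.47, 12.1 and 4.86 CPM in reporter-negative cells, with an adjusted p of 0.0505 with the block.

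Tumor calls with the block depended on the pairs used. Without pair 2, 8 ligand genes were called higher and 2 lower, both with and without the block. In the fit without the block, 20.4% of all genes were called higher and 19.2% lower. The shares of the fit with the block are not given here. The 2 pairs left were much alike, at a chi-square over degrees of freedom of 1.62 and 2.97. These calls therefore rest on a spread little beyond counting error and do not show that the differences repeat in further samples. The 8 were Ccl2, Ccl20, Cx3cl1, Cxcl1, Cxcl2, Cxcl10, Cxcl16 and Ppbp. Without pair 1 the paired fit called Ccl2, Cxcl2 and Ppbp, and without pair 3 it called Ccl2 and Ppbp, with 0 lower in both. For these last fits the share of all genes called is not given here.

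The spread between replicates itself followed a pattern shared by some ligands. In macrophages the mean of replicates 1 and 3 over replicate 2 was 7.18 for Cxcl1, 5.17 for Cxcl2 and 15.9 for Cxcl3 in FceRIa-positive cells, and 13.0, 9.88 and 13.7 for the same genes in FceRIa-negative cells. In tumor cells it was 4.28, 2.75 and 1.98 in reporter-positive cells and 4.21, 3.47 and 2.23 in reporter-negative cells, in the same gene order. The library numbered 2 was thus the low one for all 3 genes in all 4 groups. Whether macrophage and tumor libraries with the same number share an origin is not known. For Ccl3 and Ccl4 the ratio was 1.92 and 2.81 in FceRIa-positive macrophages and 2.35 and 2.96 in FceRIa-negative macrophages. For Cxcl16 it stayed between 1.09 and 1.15 in all 4 groups.

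**Figure D5:**
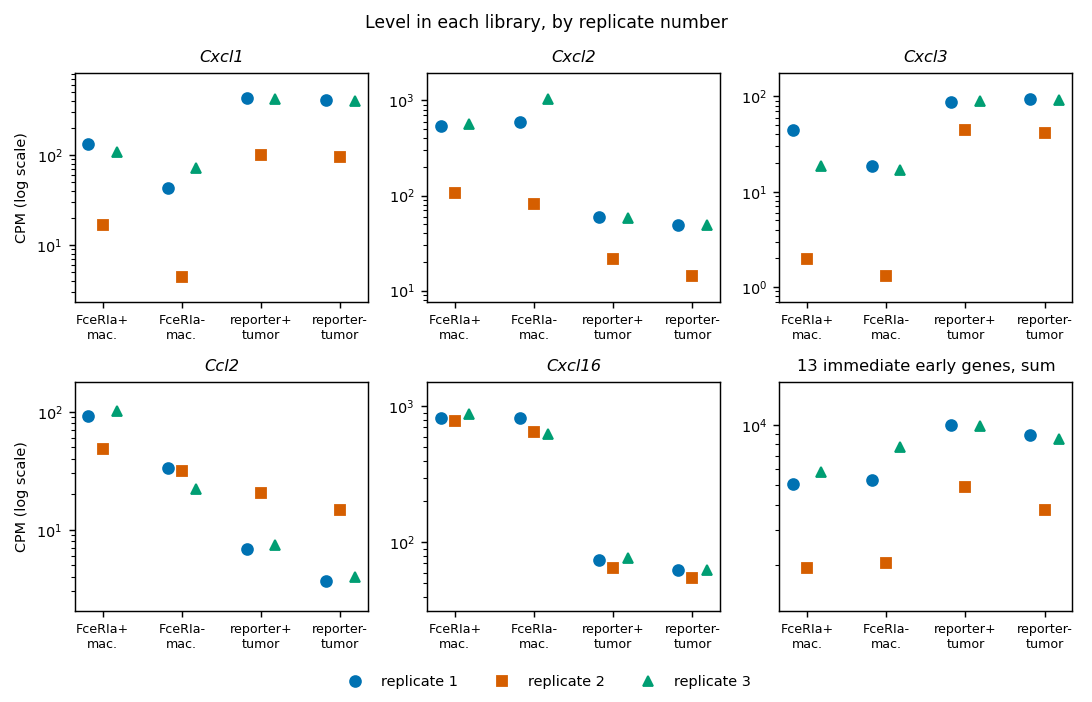
CPM in each library (log scale) of 5 ligand genes and of the sum of 13 genes listed as immediate early, some of them heat shock genes, by group and replicate number. Replicate 2 (squares) is the lowest library of its group for Cxcl1, Cxcl2, Cxcl3 and the immediate early genes in all 4 groups, while it is the highest for Ccl2 in tumor cells and Cxcl16 hardly differs between replicates.

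A list of genes that cells switch on quickly after stimulation, with heat shock genes among them, was also lowest in the libraries numbered 2. The 13 genes, called immediate early genes here, were chosen after the values were seen and include the heat shock genes Hspa1a, Hspa1b and Dnajb1. Their sum was 5100, 1937 and 5840 CPM in FceRIa-positive macrophages and 5340, 2053 and 7770 CPM in FceRIa-negative macrophages. They summed to 10039, 4894 and 9836 CPM in reporter-positive tumor cells and 8937, 3774 and 8500 CPM in reporter-negative tumor cells. Replicate 2 was the lowest of 3 for 12 of 13 of them in FceRIa-positive macrophages and for 13 of 13 in each other group. Over all genes tested, the share with replicate 2 lowest was 36.4 and 39.9% in FceRIa-positive and FceRIa-negative macrophages and 41.1 and 41.0% in reporter-positive and reporter-negative tumor cells. With the block, 7 of the 13 listed genes rose in reporter-positive tumor cells, against 10.7% of all genes, with Hspa1a, Hspa1b and Dnajb1 among them. In FceRIa-positive macrophages 4 of 13 fell, against 10.2%, with Hspa1a and Hspa1b among them. In the macrophage table the columns of replicate 2 carry the word New in their headers, and the sources used here do not say what it marks. The part of sorting, handling or batch in these ligand levels was not tested, and the replicate number and such differences cannot be told apart.

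Another group of ligands was high in replicate 2 of the tumor cells. Ccl2 in replicate 2 was 2.86 and 3.86 times the mean of replicates 1 and 3 in reporter-positive and reporter-negative cells, Cx3cl1 2.72 and 2.59 times, and Ccl8 4.98 and 4.37 times. Markers of some other cells moved with them. Fibroblast markers had 49.1, 164 and 37.1 CPM summed in reporter-positive cells and 69.1, 126 and 40.5 CPM in reporter-negative cells. The macrophage marker Csf1r had 2.79, 11.8 and 2.57 CPM in reporter-positive cells and 1.94, 8.35 and 1.60 CPM in reporter-negative cells. All 8 macrophage markers, however, summed in replicate 2 to only 1.16 and 1.11 times the mean of replicates 1 and 3 in the same groups. Sums of 3 further lists were lower in replicate 2. These ratios were 0.706 and 0.594 for dendritic and Langerhans cells, 0.853 and 0.923 for endothelial and lymphatic cells, and 0.722 and 0.891 for B cells. Neutrophil markers in replicate 2 summed to 4.40 and 1.63 times the mean of replicates 1 and 3 in reporter-positive and reporter-negative cells, and mast cell and basophil markers to 27.1 and 5.5 times. Their part in these levels was not tested.

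Chemokine receptors, a list of 23 genes, were read beside the ligands. In the contrast of cell types 18 of the 19 receptors tested were higher in macrophages, against 44.8% of all genes, and 1, Ackr3, was lower, against 40.6%. Ccr1, the receptor of Ccl3, Ccl6 and Ccl9, had 537 to 891 CPM in macrophages and 0.681 to 2.36 CPM in tumor cells, and Ccr2, the receptor of Ccl2, Ccl7 and Ccl12, had 416 to 1213 CPM in macrophages and 0.0973 to 2.02 CPM in tumor cells. Ackr3, a receptor that removes Cxcl11 and Cxcl12 from the surroundings, had 2.20 to 10.9 CPM in macrophages and 109 to 221 CPM in tumor cells. Cxcr2, the receptor of Cxcl1, Cxcl2 and Cxcl3, had 31.4, 3.38 and 17.8 CPM in FceRIa-positive macrophages and 72.6, 5.53 and 73.2 CPM in FceRIa-negative macrophages. Its low library was again replicate 2. The 6 neutrophil markers, read beside it because neutrophils carry this receptor, summed to 353, 145 and 250 CPM in FceRIa-positive macrophages and 606, 126 and 592 CPM in FceRIa-negative macrophages, and their part in its level was not tested.

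Across the FceRIa sort, 0 of the 19 receptors tested was called without the block, while 4 rose and 6 fell with it, against 10.8 and 10.2% of all genes. Cxcr4, the CXCL12 receptor, was higher by 0.95 ± 0.11 in log2 terms (SE, adjusted p = 0.000893) and Cx3cr1, the receptor of Cx3cl1, by 0.81 ± 0.15 (SE, adjusted p = 0.00742). The log2 difference was -0.67 ± 0.13 for Ccr2 (SE, adjusted p = 0.00994), -1.92 ± 0.12 for Ccr6, the receptor of Ccl20 (SE, adjusted p = 0.000121), and -1.39 ± 0.21 for Cxcr2 (SE, adjusted p = 0.00302). Ccr2 fell in FceRIa-positive macrophages while its ligands rose there, and Cx3cr1 rose while Cx3cl1 fell. Ccr4 and Ccr8, the receptors of Ccl17 with Ccl22 and of Ccl8, stayed at or under 0.286 CPM in every library of both cell types. In tumor cells 0 of 8 receptors tested was called without the block and 1, Ccr3, with it, at 0.168 to 0.905 CPM.

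With the block 10.7% of all genes rose in reporter-positive tumor cells and 10.8% in FceRIa-positive macrophages, where 10.2% fell, and the lists of upstream pathways are given against these shares. Of the NF-kappaB factors and feedback genes, 4 of 15 rose in reporter-positive tumor cells with the block, namely Tnfaip3, Nfkbiz, Bcl3 and Nfkbia, and 0 fell. Tnfaip3, an NF-kappaB feedback inhibitor, had 109.8, 43.7 and 108 CPM in reporter-positive cells and 66.0, 31.9 and 63.6 CPM in reporter-negative cells, a log2 difference of 0.65 ± 0.07 (SE, adjusted p = 0.00664 with the block, 0.441 without). Across the FceRIa sort 1 of 16 rose, Ikbke, by 0.50 ± 0.09 (SE, adjusted p = 0.00631). Of the interferon response genes, 1 of 11 rose in reporter-positive tumor cells, Gbp2, and in macrophages 2 of 15 rose, Gbp5 and Rsad2, and 1 fell, Usp18, all with the block and in numbers near those shares. Without the block 0 genes of either list were called in either sort.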

How the data were processed

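Per the labels' protocols, RNA was extracted from sorted cells with Trizol, and 100 ng went into each TruSeq v2 library. The authors deposited raw counts of reads per gene in 1 table for each cell type. STAR, FastQC and the mm10 (GRCm38) build are named in the submitters' processing notes, while the sources used here give no versions, counting tool or strand setting. The 4 columns that match no sample were left out. Total counts and the limit they set are given in the opening of the results. Genes were filtered with filterByExpr, scaled by TMM and tested with edgeR 4.0.16 (quasi-likelihood test, Benjamini-Hochberg adjustment over all genes tested, threshold 0.05) in R 4.3.3. An SE is the size of the log2 difference divided by the square root of F. CPM share 1 TMM scale over 12 libraries, and exon lengths and gene positions come from GENCODE M21.

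Fits without the replicate number were the principal ones, and fits with it as a block were alternatives, as were DESeq2 1.42.0, other scalings, no count filter and leaving out libraries. Same-numbered libraries deviated together, with correlations of 0.688, 0.787 and 0.734 in macrophages and 0.449, 0.703 and 0.488 in tumor cells for replicates 1, 2 and 3, so the numbers were taken to pair the samples. In tumor cells replicates 1 and 3 also correlated across numbers (0.483 and 0.488), about as strongly as within them. The check there set apart replicate 2 only, and the pairing of replicates 1 and 3 was assumed from their numbers. Members and gene lists were chosen with earlier results of these data known. Ligands were named in full where a group averaged at least 10 CPM, or where a fit called them at 1 CPM or more. Some items are not reported here.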

Additional observations from a re-analysis of the deposited data

How the results depend on the processing

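Across the FceRIa sort, the count of ligand genes called higher in FceRIa-positive macrophages was 0 without pairing, 6 with DESeq2, 6 without the count filter, 11 with the replicate block and 11 with DESeq2 and the block. The count called lower was 0 without pairing, 3 with DESeq2, 2 without the count filter, 3 with the block and 3 with DESeq2 and the block. Leaving out libraries or pairs gave 0 to 11 higher and 0 to 3 lower. In tumor cells the counts were 1 higher and 0 lower without pairing, 4 higher and 2 lower with the replicate block, and 4 higher and 1 lower with DESeq2 and the block. Leaving out libraries or pairs gave 0 to 8 higher and 0 to 2 lower. The share of all genes called was not set beside each count, so these counts do not measure how stable the ligand calls were. The cause of these moves was not tested. In the contrast of cell types all 34 recomputed counts stayed within 1.5 times the reported ones.

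The sign changed when libraries or pairs were left out for these log2 differences. Across the FceRIa sort they ranged from -0.481 to 0.171 for Ccl3, -0.536 to 0.168 for Ccl4, -0.0229 to 0.473 for Cxcl10, -1.01 to 0.269 for Cxcl2, -0.233 to 1.38 for Cxcl3 and -2.09 to 2.2 for Cxcl5. In tumor cells they ranged from -0.0626 to 1.57 for Ccl2, -0.998 to 0.212 for Ccl3, -0.708 to 1.56 for Ccl4, -0.872 to 2.32 for Ccl7, -1.25 to 1.01 for Ccl8, -0.287 to 0.957 for Cx3cl1, -0.343 to 0.509 for Cxcl1, -0.0944 to 0.641 for Cxcl2 and -0.347 to 0.211 for Cxcl3. Each of these ranges pools fits with and without the block. In the fits with the block and a pair left out, fewer of these genes changed sign. They were Ccl3 and Cxcl2 across the FceRIa sort and Cxcl3 in tumor cells. In tumor cells those fits gave 0.636 to 0.894 for Ccl2 and 0.255 to 0.409 for Cxcl2. For Cxcl3 across the FceRIa sort they gave 0.306 to 1.1. Between cell types, where no block was used, Ppbp ranged from -0.146 to 0.59.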
